A study of Homo sapiens with 80 samples.

Results

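The 10 genes described here belong to the antioxidant response controlled by the transcription factor NRF2. They were the rows of the count table whose Ensembl identifiers map to NFE2L2, KEAP1, GCLC, GCLM, HMOX1, NQO1, TXNRD1, TXN, SRXN1 and SLC7A11, which is 10 of 60663 genes, a rule that uses no measured value. The RNA was that of Jurkat (clone E6-1), a leukemic line of human T lymphocytes, in 80 rRNA-depleted libraries. The hypg groups were exposed to 9 g in a pipette centrifuge, hypg20s and hypg75s for the seconds in their names and hypg3, hypg5, hypg7, hypg9, hypg15 and hypg60 for the minutes, with 6 libraries per group. Those up to hypg15 spent the rest of a total of 15 min at 1 g, as their control Ctrl did throughout. Ctrl60, the control of hypg60, spent 60 min at 1 g. The library names of Ctrl60 alone mention HEPES, and whether its medium differed is not known. In a separate experiment with 4 libraries per group, cells were spun at 300 g for 5 min and lysed 1 min (wait1min), 4 min (wait4min) or 15 min (wait15min) after the stop, or were held in a water bath at 42 °C (heat), while the controls (Ctrl300) were lysed directly, without spin or pause. By the study's methods the heat lasted 5 min and lysis followed at once. The wait times are those of the sample titles. The library names in the count table call the wait1min libraries "instant" and those of wait4min "1min". The study's methods give the same times as the titles, which were followed. Library 75 of hypg15 had no count on several chromosomes, those of GCLC, TXN and SLC7A11 among them, and was left out, so hypg15 had 5 libraries. All cells were of 1 line, the labels do not say whether libraries came from separate cultures, and p-values measure the spread between these libraries only.

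NRF2, encoded by NFE2L2, is a transcription factor that is normally kept scarce because KEAP1 presents it to a CUL3 ubiquitin ligase for degradation. Oxidants and electrophiles modify KEAP1, NRF2 then accumulates, pairs with small MAF proteins and binds antioxidant response elements of its target genes. The targets include the cystine carrier SLC7A11, both subunits of the enzyme that makes the glutathione precursor (GCLC and GCLM), the thioredoxin system (TXN, TXNRD1 and SRXN1), the quinone reductase NQO1 and the haem oxygenase HMOX1. NRF2 itself is controlled mainly as a protein, which RNA counts do not show. On GRCh38, as the table gives the gene spans, NFE2L2 lies at chr2:177227595-177392697, KEAP1 at chr19:10486125-10503558, GCLC at chr6:53497341-53616970, GCLM at chr1:93885199-93909456, NQO1 at chr16:69706996-69726668, TXN at chr9:110243810-110256507, SRXN1 at chr20:646615-653200 and SLC7A11 at chr4:138164097-138242349, all on the minus strand, and HMOX1 at chr22:35380361-35394214 and TXNRD1 at chr12:104215779-104350307 on the plus strand. Counts were taken over all exons of a gene, untranslated ones included.

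The 11 start sites of 8 members in RefSeq's promoter windows, HMOX1 and SLC7A11 not among them (GRCh38.p14, 250 bases before to 50 after the start), were searched for the core of the antioxidant response element, TGACNNNGC on either strand, and the windows with a match are shown because they separate the members by this sequence. GCLM, TXNRD1 and KEAP1 held matches, at 4 start sites in all, whereas NFE2L2, GCLC, TXN, NQO1 and SRXN1 had none in these windows. The same letters occurred in 13.3% of all 35116 windows. Positions are counted from the first transcribed base. The match began 34 bases before the start of GCLM, 99 and 8 bases before the outer and 102 bases before the inner start of TXNRD1, and 54 and 31 bases before 1 of the 2 starts of KEAP1. TGAGTCA and TGACTCA, the AP-1 letters that can overlap the element, were in 0 of the 11 windows. The 121 bases up to and including the first transcribed base follow, 5′ to 3′, with the matched bases in capitals.
GCLM, chr1:93909430-93909550, minus strand: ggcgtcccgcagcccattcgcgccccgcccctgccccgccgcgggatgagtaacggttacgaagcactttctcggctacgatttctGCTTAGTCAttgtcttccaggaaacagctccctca
TXNRD1, outer start, chr12:104215659-104215779, plus strand: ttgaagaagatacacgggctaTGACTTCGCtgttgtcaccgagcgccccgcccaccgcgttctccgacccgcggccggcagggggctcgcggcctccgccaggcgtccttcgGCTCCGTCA
TXNRD1, inner start, chr12:104286912-104287032, plus strand: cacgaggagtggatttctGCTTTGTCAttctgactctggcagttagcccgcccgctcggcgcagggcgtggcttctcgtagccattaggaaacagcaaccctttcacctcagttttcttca
KEAP1, chr19:10502771-10502891, minus strand: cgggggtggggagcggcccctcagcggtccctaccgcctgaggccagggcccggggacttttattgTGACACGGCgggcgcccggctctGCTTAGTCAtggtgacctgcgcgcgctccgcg

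In unexposed cells the members spanned a wide range of levels. Read pairs per 1000000 counted (CPM) were divided by exon length in kb to compare genes with each other. In Ctrl, TXN, the small disulfide reductase, stood highest at 62.1 ± 3.75 CPM per kb (SD, n = 6), followed by its reductase TXNRD1 at 49.0 ± 3.15 and the NRF2 adaptor KEAP1 at 47.9 ± 0.71. TXNRD1 ran from 44.7 to 54.5 and KEAP1 from 47.2 to 49.2, so these neighbours did not differ beyond their spread. GCLC at 3.91 ± 0.47, NQO1 at 3.87 ± 0.27, NFE2L2 at 2.86 ± 0.43 and GCLM at 2.75 ± 0.46 formed a lower tier. Their libraries ran from 3.37 to 4.54 for GCLC, 3.41 to 4.18 for NQO1, 2.34 to 3.43 for NFE2L2 and 2.22 to 3.38 for GCLM, so each neighbour in this order overlapped with the next. SLC7A11 was at 0.278 ± 0.11 and SRXN1, the sulfiredoxin that repairs peroxiredoxins, at 0.189 ± 0.04. HMOX1 had 3 counts in all, 1 in each of 3 libraries, and was at 0 in the other 77, where 0 counts allow a level of up to 0.072 to 0.174 CPM per library (0.174 in library 75, which was left out). HMOX1 was therefore not tested, and 9 of the 10 members passed the filter on low counts in every comparison. SRXN1 had only 3 to 33 counts per library and shares 90.7% of its exon bases with another gene on the same strand, whose read pairs in the shared part were counted for neither, so its level is an underestimate. NFE2L2 shares 18.6% of its exon bases in the same way.

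The libraries of the spin at 300 g stood apart from all others. Total counts ran from 22634465 to 41893490 over the 79 libraries used. The mean GC content of the genes counted, weighted by counts, was 48.9% to 49.3% in the 3 wait groups, 52.1% to 52.4% in Ctrl300 and 52.2% to 52.4% in heat. The 10 genes with most counts held 4.92% to 5.62% of the counts in the wait groups and 8.08% to 8.50% in Ctrl300. T cell markers were present in every group (10 of 10 listed genes above 1 CPM), with a summed level of 3474 to 3512 CPM in Ctrl300 and 2626 to 2798 CPM in the wait groups. All 5 myeloid markers summed to at most 0.93 CPM and the 3 erythroid markers to at most 0.13 CPM in any library. CD79A was above 1 CPM in a B cell list otherwise below it, and COL1A1 alone among 4 fibroblast and epithelial genes. The part of these differences between libraries in the members' values was not tested, other than by the GC content offset used at 300 g and 9 g.

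After centrifugation at 300 g the read shares of NFE2L2, SLC7A11 and GCLC were higher and those of KEAP1 and NQO1 lower, that of GCLM was higher but turned lower once GC content was removed, and HMOX1 had no counts. Of the 9 tested members, 6 were higher and 2 lower at wait1min, and 5 were higher and 3 lower at both wait4min and wait15min (edgeR's quasi-likelihood test, adjusted p under 0.05 over all genes). Most genes passed the same test, namely 41.4% higher and 40.1% lower of 17155 genes at wait1min, 41.7% and 40.6% at wait4min, and 41.8% and 40.5% at wait15min, so a call alone tells little about the members. The median absolute log2 fold change at wait1min was 1.0 over the 9 members and 0.68 over all genes tested. In bulk RNA, fewer cells and less RNA per cell cannot be told apart. CPM values are shares of the RNA counted. Fold changes were computed on shares rescaled by TMM factors, so they can differ from the ratio of the CPM values printed beside them.

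NFE2L2 was at 13.3, 12.4, 11.9 and 11.8 CPM in the Ctrl300 libraries and at 54.7, 54.4, 53.4 and 54.2 CPM at wait1min. It lay between 53.2 and 56.3 CPM at wait4min and between 50.6 and 55.0 CPM at wait15min, so no centrifuged library came near a control. The fold change was 3.71 at wait1min (log2 1.89, SE 0.05, adjusted p = 2.2e-15), 3.68 at wait4min and 3.62 at wait15min. KEAP1, whose protein holds NRF2 down, moved the other way. It was at 172.1, 181.8, 180.6 and 174.2 CPM in Ctrl300 and at 111.6, 101.1, 100.9 and 107.7 CPM at wait1min, without overlap. KEAP1 was 2.00-fold lower at wait1min (log2 −1.0, SE 0.04, adjusted p = 2e-13), 1.89-fold lower at wait4min and 1.97-fold lower at wait15min. The ratio of both genes within a library does not depend on factors that scale a whole library, such as TMM, but it does on a GC content offset, which differs between genes. Without such an offset it was 12.96 to 15.2 read pairs of KEAP1 per read pair of NFE2L2 in Ctrl300 and 1.86 to 2.04 at wait1min, 1.95 to 2.19 at wait4min and 1.94 to 2.10 at wait15min.

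**Figure D1:**
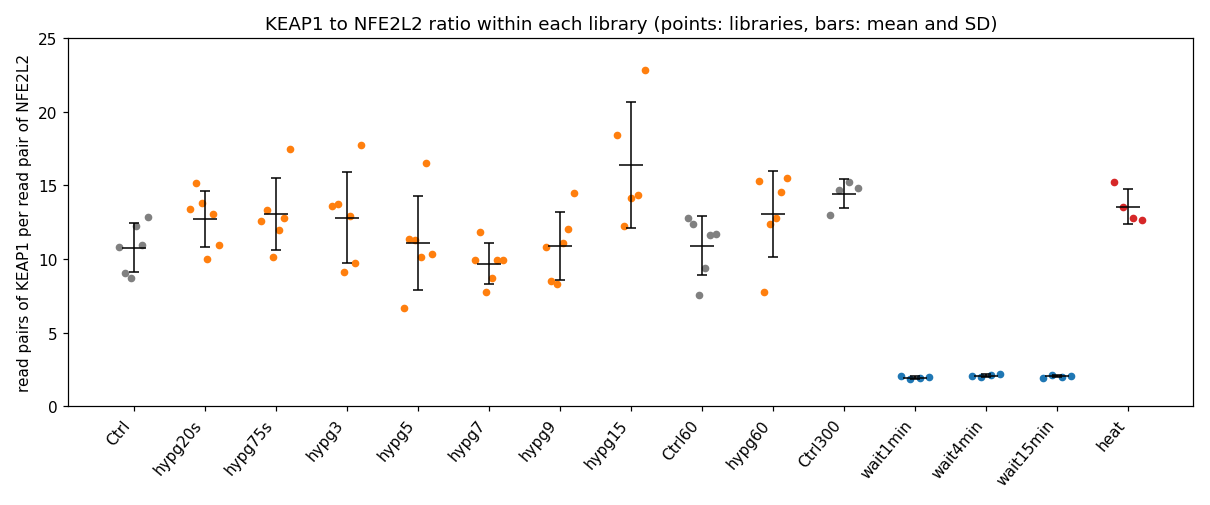
The y axis gives read pairs of KEAP1 per read pair of NFE2L2 in each library and the x axis the 15 groups (points are libraries, bars the mean and SD, grey for controls, orange for 9 g, blue for 300 g and red for heat). The 12 libraries spun at 300 g lie between 1.86 and 2.19, below every library of every other group.

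SLC7A11, which imports cystine for glutathione synthesis, had the largest fold change of the 9 members at each wait with TMM normalization, whereas with the GC offset it came after NFE2L2 (log2 1.14, 1.17 and 1.14 at the 3 waits, against 1.63, 1.63 and 1.60). It was at 3.40, 3.18, 3.23 and 2.76 CPM in Ctrl300 and at 25.1, 27.3, 29.7 and 28.1 CPM at wait1min, and the later waits ran from 23.8 to 29.6 CPM. The fold change was 7.39 at wait1min (log2 2.89, SE 0.08, adjusted p = 3e-15), 7.09 at wait4min and 7.03 at wait15min. These levels rest on 82 to 133 counts per library in Ctrl300 and 612 to 845 counts in the wait groups.

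The 2 subunits of glutamate-cysteine ligase rose less. The catalytic subunit GCLC was at 33.9, 32.1, 33.8 and 32.7 CPM in Ctrl300 and at 79.4, 78.0, 78.1 and 80.0 CPM at wait1min, a 2.01-fold difference (log2 1.01, SE 0.04, adjusted p = 2.2e-13), with 1.94-fold and 1.95-fold at the later waits. The modifier subunit GCLM was at 15.3, 16.0, 15.3 and 14.9 CPM in Ctrl300 and at 44.7, 40.8, 42.9 and 46.2 CPM at wait1min. Its 2.39-fold rise (log2 1.26, SE 0.05, adjusted p = 3e-13) was called at all 3 waits, but turned to a fall when the relation of counts to GC content was removed, by 0.29, 0.24 and 0.23 on the log2 scale at wait1min, wait4min and wait15min. Neither subunit's libraries overlapped between Ctrl300 and any wait. There were 2.00 to 2.22 read pairs of GCLC per read pair of GCLM in Ctrl300 and 1.67 to 1.91 in the wait groups.

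With TMM normalization the thioredoxin pair hardly moved by comparison. TXNRD1 was at 364.0, 319.8, 343.0 and 317.8 CPM in Ctrl300 and at 434.2, 481.3, 438.5 and 437.3 CPM at wait1min, yet after TMM normalization the difference was only 1.13-fold (log2 0.17, SE 0.05, adjusted p = 0.0058), with 1.08-fold and 1.07-fold at the later waits. TXN was at 85.1, 68.6, 75.5 and 67.8 CPM in Ctrl300 and at 95.5, 119.3, 104.5 and 97.5 CPM at wait1min, where it was 1.19-fold higher (log2 0.25, SE 0.08, adjusted p = 0.0068), and it did not pass the test later (log2 0.08, adjusted p = 0.16 at wait4min, and log2 0.03, adjusted p = 0.66 at wait15min). With the GC content removed both went the other way, with log2 −0.21, −0.25 and −0.26 for TXNRD1 and −0.44, −0.58 and −0.63 for TXN at the 3 waits, so the direction of neither gene at 300 g holds across the scalings. Without library 54 the differences at wait1min were 0.11 for TXNRD1 and 0.15 for TXN on the log2 scale, both still called, and with total counts only 0.41 and 0.49. TXNRD1 at wait15min was no longer called with no filter (log2 0.07, adjusted p = 0.12), without Ctrl300 library 50 (log2 0.08, adjusted p = 0.067) or 52 (log2 0.07, adjusted p = 0.078), and TXN at wait4min was called without library 49 (log2 0.14, adjusted p = 0.00076).

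NQO1 was lower at all 3 waits and SRXN1 at the later waits. NQO1 was at 8.35, 9.49, 8.86 and 9.17 CPM in Ctrl300, 7.17, 8.69, 8.35 and 7.37 CPM at wait1min and 6.18, 6.78, 6.31 and 7.04 CPM at wait15min, with overlap at the first wait and none at the later waits. It fell by 0.42 (SE 0.08, adjusted p = 0.0002), 0.57 (SE 0.09, adjusted p = 2.9e-06) and 0.71 (SE 0.07, adjusted p = 5.7e-08) on the log2 scale at the 3 waits. Scaled by total counts only, the first of these was not called (log2 −0.18, adjusted p = 0.055). SRXN1, at 12 to 33 counts in Ctrl300 and 3 to 23 counts in the wait groups, had log2 fold changes of −0.73 (adjusted p = 0.087) at wait1min, −0.92 (adjusted p = 0.0081) at wait4min and −1.34 (adjusted p = 0.0023) at wait15min, with overlapping libraries at each. The second was not called without Ctrl300 library 52 (log2 −0.66, adjusted p = 0.052) or with total counts only (−0.66, adjusted p = 0.056), and the first was called without library 49, 53 or 54 (log2 −0.90 to −1.04).

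**Figure D2:**
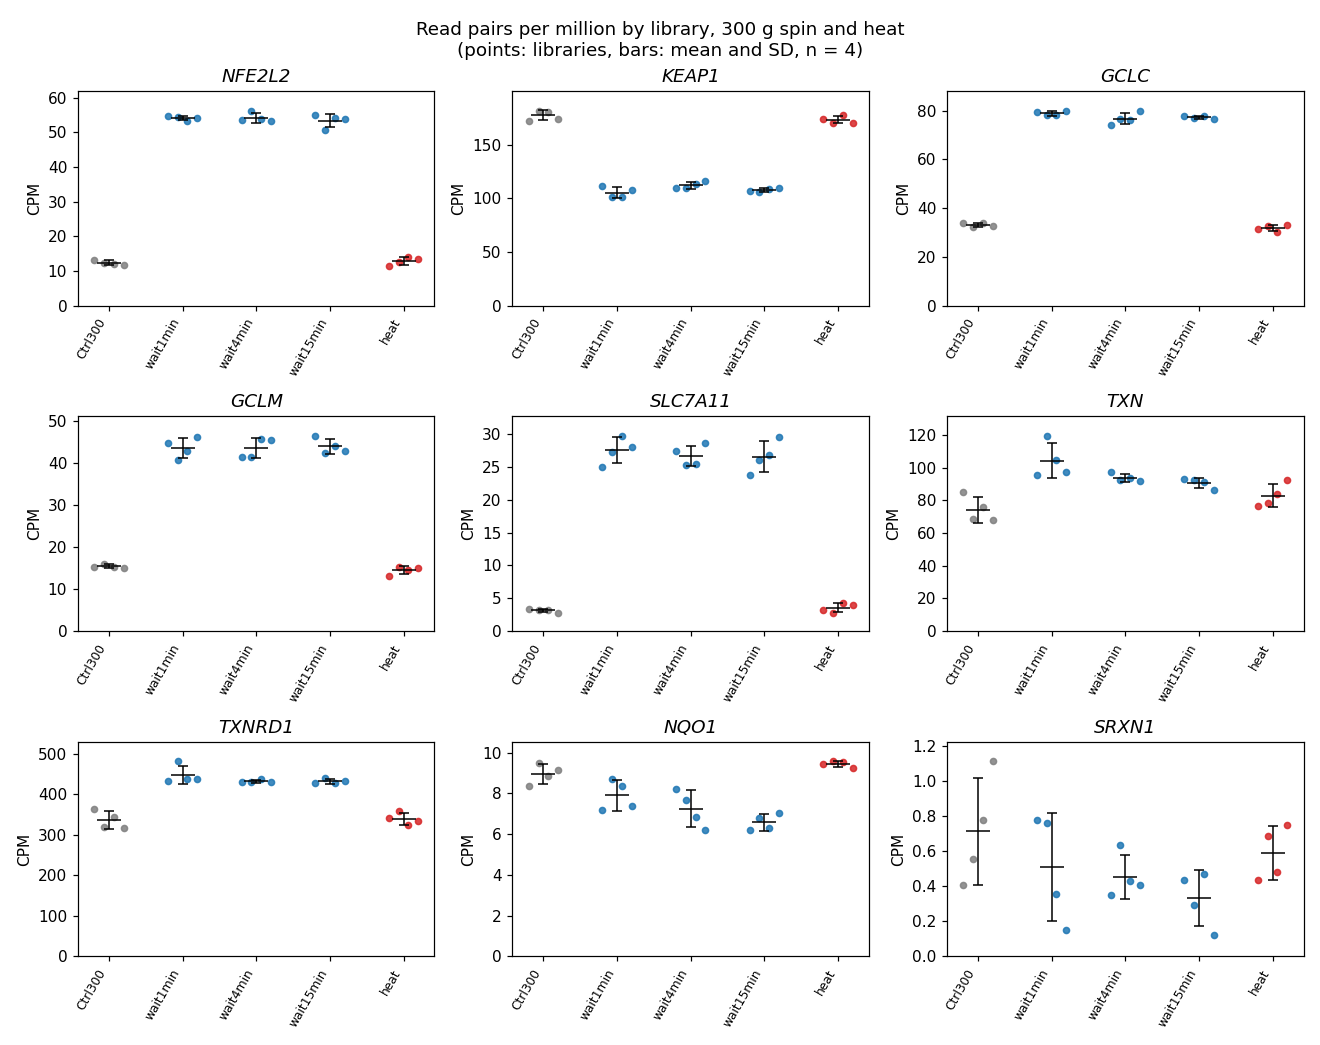
Each panel shows 1 gene, with CPM on a y axis from 0 and the 5 groups of the 300 g experiment on the x axis (points are libraries, bars the mean and SD, n = 4). NFE2L2, GCLC, GCLM and SLC7A11 are far above Ctrl300 at all 3 waits, KEAP1 is below it, and the heat libraries overlap with the controls. The direction of GCLM turned with the GC content offset (log2 −0.29 at wait1min).

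The differences were present in the group with the shortest titled wait. Between wait15min and wait1min, 0 of the 9 members were called by edgeR, beside 0.0115% of 17446 genes higher and 0.138% lower, with 2 members at an unadjusted p under 0.05 and 0 called by DESeq2. The nearest were TXN, with a log2 difference of −0.22 (95% interval −0.35 to −0.09, adjusted p = 0.2), and NQO1, with −0.29 (−0.47 to −0.10, adjusted p = 0.25). For NFE2L2 the difference was −0.04 (−0.12 to 0.05) and for SLC7A11 −0.07 (−0.20 to 0.06). The spin of 5 min and the pause before lysis were shared by all wait libraries and by no control, so the spin and the handling around it cannot be told apart.

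Across genes, the log2 fold change at 300 g followed the GC content of the transcript, with Spearman's rho −0.69 at wait1min and −0.66 at both later waits over 16907 to 16936 genes, which share the same libraries and are not independent replicates. The GC content was 35.4% in SLC7A11, 37.3% in GCLM, 44.3% in GCLC and 45.6% in NFE2L2, the members that rose most, and 60.3% in KEAP1. The members did not follow it throughout, since TXN (42.8%) and TXNRD1 (44.8%), with small differences, and NQO1 (46.0%), which was lower, lay in the same range as GCLC and NFE2L2. When a smooth curve of each library's counts against GC content entered the model as an offset, NFE2L2 was 3.09-fold higher at wait1min, SLC7A11 2.21-fold and GCLC 1.47-fold higher, and KEAP1 1.44-fold lower, all called at all 3 waits. The log2 fold change of NQO1 was then −0.64, −0.78 and −0.92. The median of all genes was −0.12, −0.11 and −0.12 in these fits, and 0.25, 0.27 and 0.27 when total counts alone set the scale. The share of higher genes among the calls was 50.8% at wait1min with TMM, 62.0% with total counts only and 40.8% with the offset.

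**Figure D3:**
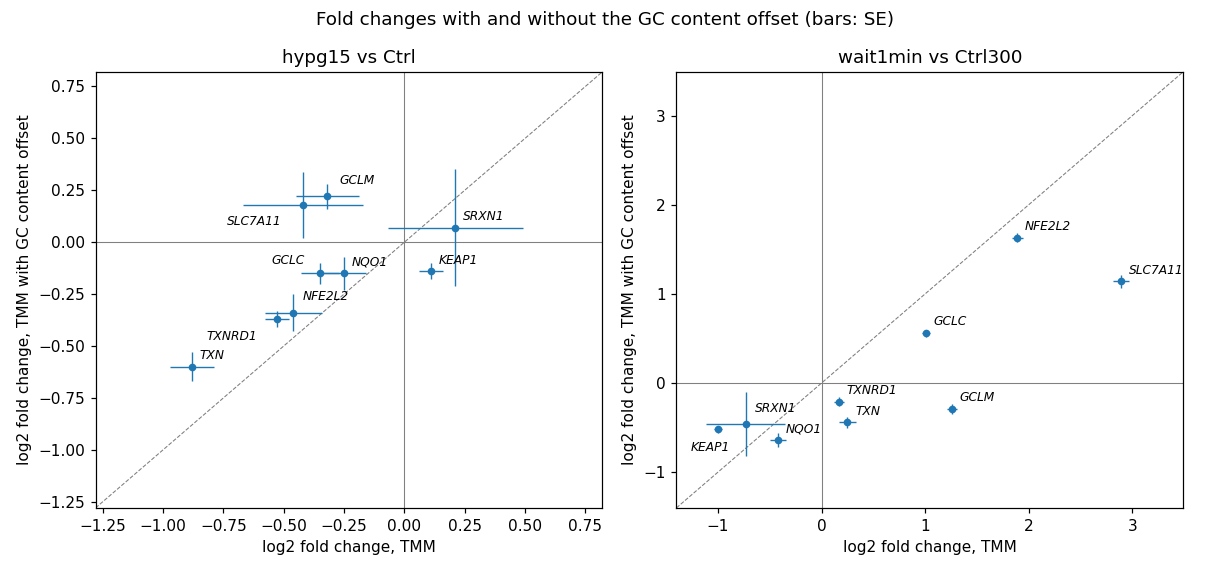
Log2 fold changes of the 9 tested members are plotted without (x axis) and with (y axis) the GC content offset, at hypg15 on the left and wait1min on the right (bars are SE, the dashed line marks equal values). NFE2L2, SLC7A11, GCLC and KEAP1 keep their sign at wait1min while GCLM, TXN and TXNRD1 cross the zero line.

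At 42 °C the members did not pass the test. By edgeR, 0 of 9 were called, beside 10.6% of 16655 genes higher and 10.2% lower, with 0 members at an unadjusted p under 0.05 and 0 called by DESeq2. NFE2L2 was at 11.4, 12.6, 13.9 and 13.5 CPM, overlapping Ctrl300, with a log2 difference of 0.03 (95% interval −0.12 to 0.19). The difference was −0.06 (−0.13 to 0.01) for KEAP1, 0.15 (−0.13 to 0.44) for SLC7A11, −0.12 (−0.26 to 0.01) for GCLM and 0.13 (−0.01 to 0.27) for TXN. HMOX1, a gene known from heat and haem stress in many cells, had no count in the 4 heated libraries. Other fits called a few members: TXN was higher without Ctrl300 library 49 (log2 0.19, adjusted p = 0.021), KEAP1 and GCLC were lower with the GC offset (log2 −0.15 and −0.12), and KEAP1, GCLC and GCLM were lower with all groups in 1 model (log2 −0.13, −0.16 and −0.19).

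At 9 g, TXN was lower at 7 of 8 times, the call at hypg7 being lost in several other fits. No member was higher at any time by edgeR with TMM over all libraries used. In other fits at hypg15, GCLM was called higher with the GC offset and KEAP1 without library 77. At hypg20s TXN alone was called of 9 members, beside 6.66% of genes higher and 8.58% lower. At hypg75s 3 members were lower (16.8% of genes higher, 14.4% lower), at hypg3 4 members (16.9% and 24.4%), at hypg7 1 member (6.64% and 6.19%), at hypg9 2 members (11.3% and 8.34%), at hypg15 6 members (25.4% and 27.9%) and at hypg60 2 members (17.1% and 13.0%). At hypg5 edgeR called 0 members, beside 4.33% of genes higher and 1.69% lower, with 4 members at an unadjusted p under 0.05 and 1, TXN, called by DESeq2. The median log2 fold change of the 9 members was between −0.35 and −0.03 over the 8 times, and that of all genes between −0.02 and 0.02. The 7 groups up to hypg15 share the Ctrl libraries, so their differences are not independent of each other.

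TXN, the most abundant member per length, ran from 59.9 to 70.2 CPM in Ctrl, with a median of 61.6. Its range in hypg20s was 47.7 to 58.2 CPM (median 50.7), in hypg75s 45.7 to 51.6 CPM (49.1) and in hypg3 35.9 to 45.3 CPM (40.2). It was 51.3 to 62.0 CPM (57.8) in hypg5, 49.8 to 64.2 CPM (58.3) in hypg7, 45.4 to 56.6 CPM (52.0) in hypg9 and 25.8 to 39.6 CPM (33.3) in hypg15. The libraries of hypg20s, hypg75s, hypg3, hypg9 and hypg15 did not overlap with Ctrl, and those of hypg5 and hypg7 did. TXN was 1.20-fold lower at hypg20s (log2 −0.26, SE 0.05, adjusted p = 0.0028), 1.29-fold at hypg75s (adjusted p = 2.6e-05), 1.56-fold at hypg3 (log2 −0.64, SE 0.06, adjusted p = 7.6e-06), 1.13-fold at hypg7 (adjusted p = 0.041), 1.26-fold at hypg9 (adjusted p = 0.00061) and 1.84-fold at hypg15 (log2 −0.88, SE 0.09, adjusted p = 4.4e-06). At hypg5 its log2 difference was −0.15 (95% interval −0.26 to −0.05, adjusted p = 0.077). In hypg60 it ran from 36.2 to 62.8 CPM (median 45.7) against 57.4 to 67.1 (63.7) in Ctrl60, 1.37-fold lower (log2 −0.46, SE 0.08, adjusted p = 0.00071). Ctrl library 3 held the highest Ctrl value, and without it TXN at hypg7 was not called (log2 −0.16, adjusted p = 0.074). Nor was it called there with total counts only (−0.14, adjusted p = 0.15), with no filter on low counts (−0.18, adjusted p = 0.058) or with all groups in 1 model (−0.18, adjusted p = 0.091). With the GC content offset TXN was still called lower at the same 7 times, with log2 fold changes between −0.60 and −0.14 (−0.14 at hypg20s, −0.39 at hypg3), and −0.09 at hypg5 (adjusted p = 0.36).

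TXNRD1, the selenoenzyme that reduces thioredoxin, followed TXN at 3 of these times. It ran from 300.3 to 365.4 CPM (median 326.9) in Ctrl, 255.8 to 314.5 (287.5) at hypg75s, 211.0 to 266.0 (234.4) at hypg3 and 198.4 to 240.6 (230.0) at hypg15, with overlap at hypg75s only. It was 1.17-fold lower at hypg75s (log2 −0.22, SE 0.04, adjusted p = 0.0014), 1.40-fold at hypg3 (log2 −0.49, SE 0.05, adjusted p = 1.8e-05) and 1.45-fold at hypg15 (log2 −0.53, SE 0.05, adjusted p = 4.7e-06). At the other times the log2 difference lay between −0.18 and −0.10 and did not pass the test. With the GC offset TXNRD1 was called lower at 5 times, at these 3 (log2 −0.17, −0.32 and −0.37) and at hypg5 (−0.13, adjusted p = 0.028) and hypg9 (−0.11, adjusted p = 0.049). Read pairs of TXNRD1 per read pair of TXN numbered 5.01 to 5.42 in Ctrl, 5.85 to 6.53 at hypg9 and 5.81 to 8.03 at hypg15, without overlap. The ratio overlapped with Ctrl at the other 5 times, where single libraries lay between 4.75 (hypg5) and 6.62 (hypg7), and it was 5.50 to 7.00 at hypg60 against 5.00 to 5.53 in Ctrl60, also overlapping. NQO1, which reduces quinones by 2 electrons, ran from 10.1 to 12.4 CPM (median 11.5) in Ctrl and was lower by 0.19 at hypg75s (adjusted p = 0.039), 0.22 at hypg3 (adjusted p = 0.037), 0.21 at hypg9 (adjusted p = 0.037) and 0.25 at hypg15 (adjusted p = 0.021) on the log2 scale. Its libraries overlapped with those of Ctrl at each of these times, and with the GC offset the call was lost at hypg75s (log2 −0.16), hypg3 (−0.09) and hypg15 (−0.15) and kept at hypg9 (−0.23). The call at hypg9 was lost with total counts only (−0.17, adjusted p = 0.067) and with no filter (−0.22, adjusted p = 0.069), that at hypg75s with no filter, and that at hypg3 with no filter, RLE factors or DESeq2 (adjusted p between 0.051 and 0.084 in these 4). With the offset NQO1 was also called at hypg7 (−0.23, adjusted p = 0.034) and hypg60 (−0.23, adjusted p = 0.044). At hypg15 it was also lost without library 77 (log2 −0.22, adjusted p = 0.052) or 79 (−0.23, adjusted p = 0.052).

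The glutathione genes passed the test at few times. GCLC ran from 29.1 to 39.1 CPM (median 33.1) in Ctrl, 25.5 to 35.3 (30.1) at hypg3 and 22.1 to 31.0 (24.8) at hypg15, and was 1.15-fold lower at hypg3 (log2 −0.21, SE 0.08, adjusted p = 0.041) and 1.27-fold lower at hypg15 (log2 −0.35, SE 0.08, adjusted p = 0.0022). Without Ctrl library 3 the difference at hypg3 was not called (log2 −0.17, adjusted p = 0.096), nor was it with RLE factors, total counts only, DESeq2 or all groups in 1 model (adjusted p 0.054 to 0.19) or with the GC offset (log2 −0.02). With the offset the difference at hypg15 was −0.15 (adjusted p = 0.035). GCLM ran from 12.1 to 18.3 CPM (median 14.8) in Ctrl and 8.42 to 15.6 (11.2) at hypg15, 1.25-fold lower (log2 −0.32, SE 0.13, adjusted p = 0.043), a call that was lost without library 3, 76, 79 or 80 (log2 −0.31 to −0.23), with total counts only (adjusted p = 0.059) and with all groups in 1 model (adjusted p = 0.05), and turned to a rise of 0.22 on the log2 scale with the GC offset (adjusted p = 0.007). SLC7A11, at 29 to 165 counts per library over the 9 g experiment, was lower only at hypg60 among the 8 times. It ran from 1.95 to 5.32 CPM (median 2.45) in Ctrl60 and from 1.07 to 2.97 (1.57) in hypg60, overlapping, a 1.73-fold difference (log2 −0.79, SE 0.26, adjusted p = 0.032). The call was lost without library 9, 10, 12, 43, 45, 47 or 48 in turn, with log2 differences from −0.51 to −0.80, and with total counts only (−0.75, adjusted p = 0.067), and the difference was −0.45 with the GC offset (adjusted p = 0.028).

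Among the regulators, NFE2L2 ran from 13.3 to 19.5 CPM (median 15.7) in Ctrl and from 8.53 to 14.1 (12.6) at hypg15, with overlap, where it was 1.38-fold lower (log2 −0.46, SE 0.12, adjusted p = 0.0044). At the other 7 times its log2 difference lay between −0.25 and 0.05. KEAP1 was between 168.8 and 175.7 CPM in Ctrl and between 155.2 and 194.9 CPM in the 8 exposed groups, with log2 differences from −0.10 to 0.11 that did not pass the test. With the GC offset KEAP1 was called lower at 7 of 8 times, with log2 differences from −0.16 to −0.12, so its small difference depends on the scaling. At hypg15 KEAP1 was called higher without library 77 (log2 0.14, adjusted p = 0.018) and lower with the offset (−0.14). At hypg15 the ratio of KEAP1 to NFE2L2 was 12.2 to 22.8, overlapping with 8.67 to 12.9 in Ctrl. SRXN1 had log2 differences from −0.11 to 0.42, at most 29 counts per library, and no call.

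**Figure D4:**
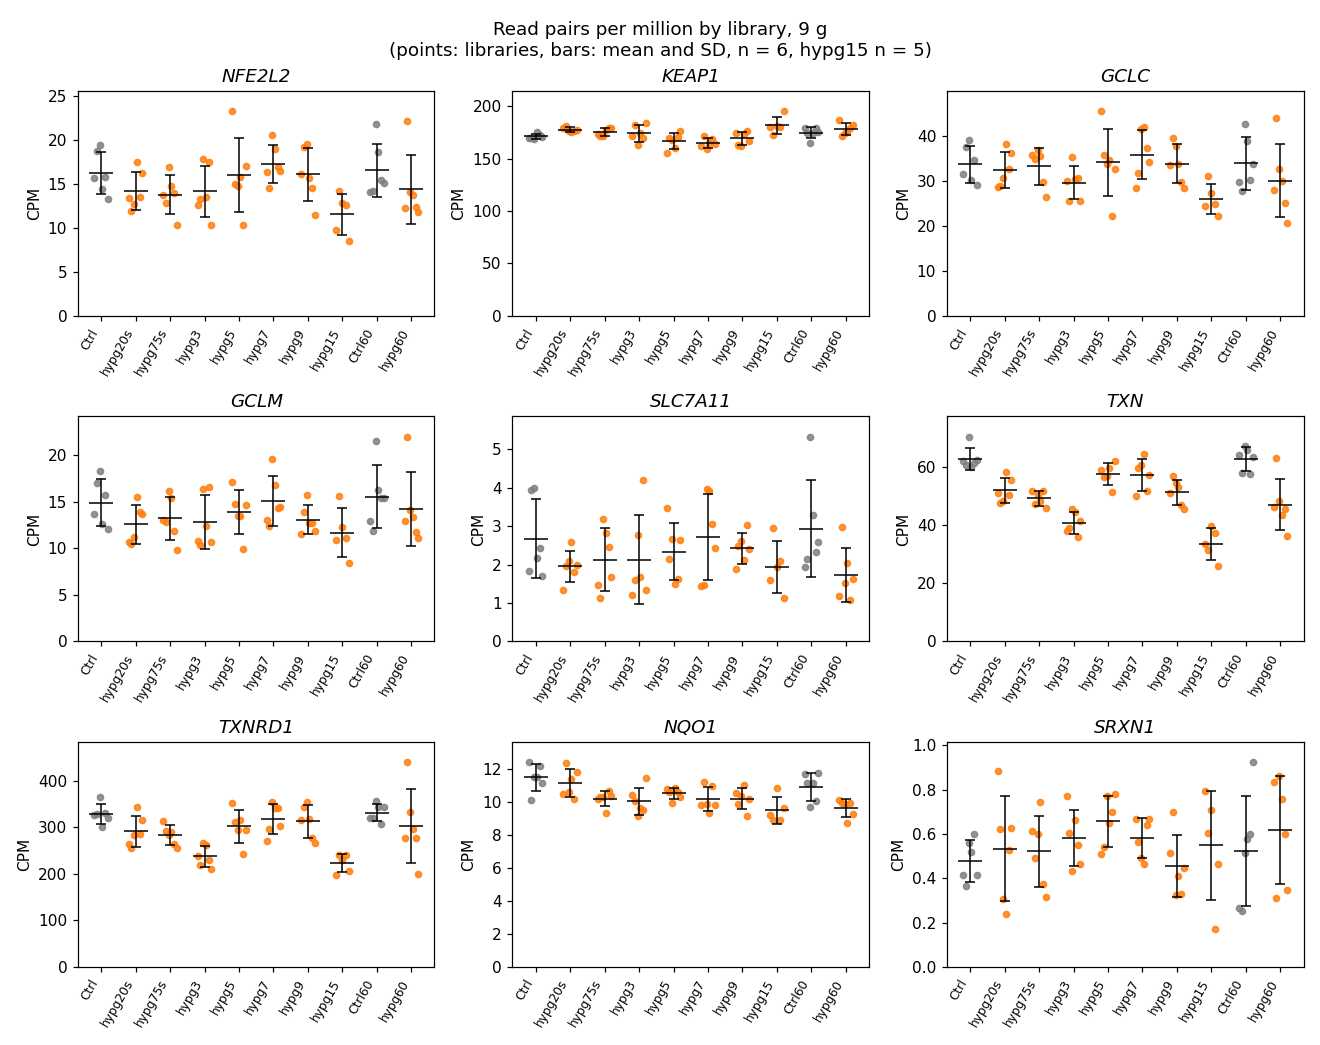
Each panel shows 1 gene, with CPM on a y axis from 0 and the 10 groups of the 9 g experiment on the x axis (points are libraries, bars the mean and SD, n = 6, and n = 5 for hypg15). The means of TXN and TXNRD1 are lowest at hypg3 and hypg15, and the high library of hypg60 in NFE2L2, GCLM, GCLC and TXNRD1 is library 44.

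The groups hypg3 and hypg15 had the highest numbers of lower members with TMM over all libraries used, though not in every other fit. They carry library numbers 69 to 80, and all other 9 g groups the numbers 1 to 48, so the number range and these 2 times cannot be told apart. Within the range, hypg15 minus hypg3 gave 0 members called by edgeR (1.70% of 15915 genes higher, 0.842% lower), with 1 member at an unadjusted p under 0.05 and 0 called by DESeq2. TXN differed by −0.27 on the log2 scale (95% interval −0.47 to −0.07, adjusted p = 0.16) and NFE2L2 by −0.28 (−0.57 to 0.02, adjusted p = 0.33). The mean GC content of the counts was 52.7% to 53.5% in hypg3, 53.1% to 54.0% in hypg15 and 52.1% to 52.7% in Ctrl, and rho between log2 fold change and GC content over genes was 0.67 at both times, against 0.10 to 0.59 at the others. The controls Ctrl60 and Ctrl, which differ in the length of the incubation at 1 g and perhaps in medium, were compared as well. For Ctrl60 minus Ctrl, edgeR called 0 members (0.00621% of 16109 genes higher, 0.00621% lower), with 0 at an unadjusted p under 0.05 and 0 called by DESeq2, and log2 differences of members lay between −0.08 and 0.14.

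Library 44 of hypg60 had the lowest GC content of the group (51.5%, the others 52.5% to 53.5%) and stood above the group in several members. NFE2L2 was at 22.2 CPM there and at 11.8 to 14.1 CPM in the other 5 libraries, and GCLM at 22.0 against 11.1 to 14.1 CPM. Without this library, 6 members were lower in hypg60 instead of 2, while the number of all genes called lower went from 2125 of 16318 to 3637 of 16417. The 6 were NFE2L2 (log2 −0.38, adjusted p = 0.0077), GCLC (−0.32, adjusted p = 0.027), GCLM (−0.31, adjusted p = 0.043) and TXNRD1 (−0.28, adjusted p = 0.014) besides TXN and SLC7A11. The labels of Ctrl60 and hypg60 agree in time, but the library names of Ctrl60 alone mention HEPES, and whether the medium differed is not known.

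**Figure D5:**
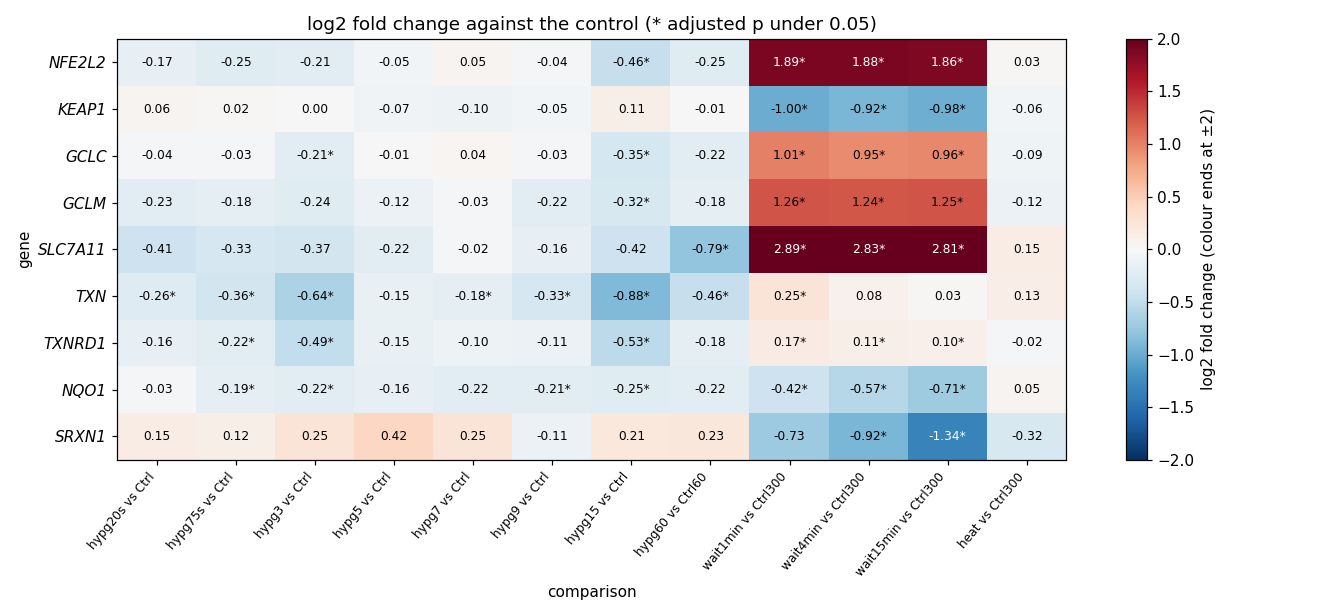
Rows are the 9 tested members and columns the 12 comparisons with a control, with the log2 fold change printed and coloured (red higher, blue lower, colour ends at ±2, asterisk for an adjusted p under 0.05). The 3 columns of 300 g hold the large changes, TXN is lower in 7 of the 8 columns of 9 g, and the heat column has no asterisk.

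The 2 kinds of centrifugation with an equal spin of 5 min were set against each other by testing the difference of their effects, wait1min against Ctrl300 minus hypg5 against Ctrl. All 9 tested members differed, 6 with a higher and 3 with a lower effect at 300 g, beside 34.7% and 37.9% of 18002 genes. On the log2 scale the difference was 3.10 for SLC7A11 (SE 0.27, adjusted p = 1.2e-09), 1.94 for NFE2L2 (SE 0.16, adjusted p = 9.8e-10) and −0.92 for KEAP1 (SE 0.08, adjusted p = 1e-09). GCLC at 1.02 kept its sign with the GC offset (0.56), while GCLM at 1.39 turned to −0.28, TXN at 0.40 to −0.34 and TXNRD1 at 0.33 to −0.07, which was not called, and SRXN1 at −1.14 lost its call (−0.83). With the offset the difference was 1.25 for SLC7A11 and −0.39 for KEAP1. NQO1 (−0.05, adjusted p = 0.64) and SRXN1 (−0.93, adjusted p = 0.065) were not called with total counts only. The experiments also differ in vessel, cell density, control and pause before lysis, which cannot be told apart from the acceleration.

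The wider pathway was read from 3 further gene lists, whose counts stand beside the share of all genes called in the same comparison. Of 18 regulators of NRF2, all tested, 7 were higher and 10 lower at wait1min, where 41.4% and 40.1% of all genes were (median log2 fold change −0.31, all genes 0.01). Among those above 5 CPM, CAND1, which exchanges cullin adaptors, rose most (85.6 to 99.9 CPM in Ctrl300, 305.2 to 331.1 CPM at wait1min, mean log2 1.49 over the 3 waits), and the kinase GSK3B followed (1.12). DPP3 (−0.99) and SQSTM1, the autophagy receptor that binds KEAP1 (86.8 to 96.0 CPM in Ctrl300, 56.6 to 60.3 CPM at wait1min, mean log2 −0.88), fell most. With the GC offset the means shrank to 0.27 for CAND1 and 0.33 for GSK3B, and to −0.55 for DPP3 and −0.48 for SQSTM1, all still called. At 9 g, 7 regulators were higher and 2 lower at hypg20s (all genes 6.66% and 8.58%), 7 and 4 at hypg75s (16.8% and 14.4%), 5 and 6 at hypg3 (16.9% and 24.4%), 3 and 0 at hypg5 (4.33% and 1.69%), 3 and 0 at hypg7 (6.64% and 6.19%), 4 and 1 at hypg9 (11.3% and 8.34%), 3 and 6 at hypg15 (25.4% and 27.9%) and 3 and 2 at hypg60 (17.1% and 13.0%). For hypg5 and hypg7, with 0 lower by edgeR, 6 regulators had an unadjusted p under 0.05 in either direction, and DESeq2 called 4 and 3. With the offset 2 were higher and 1 lower at hypg20s, beside 929 and 682 of 15931 genes, and 1 and 7 at hypg15, beside 2576 and 3401 of 15682 genes. At the other times it gave 4 and 2 at hypg75s (1635 and 2276 of 16052 genes), 3 and 6 at hypg3 (1617 and 2454 of 15984), 2 and 1 at hypg5 (768 and 1279 of 16075), 3 and 2 at hypg7 (1141 and 2262 of 16210), 4 and 2 at hypg9 (1767 and 3079 of 16166) and 3 and 4 at hypg60 (2713 and 4140 of 16104). MAFK, a small MAF partner of NRF2, was higher at 7 of 8 times (mean log2 0.35), from 111.6 to 120.5 CPM in Ctrl to 144.8 to 166.0 CPM at hypg3, and was called at the same 7 times with the GC offset (mean log2 0.20 over the 8), but at hypg15 its log2 difference of 0.12 (adjusted p = 0.12) turned to −0.17, called lower (adjusted p = 0.0036). The acetyltransferase CREBBP was higher at 7 of 8 (mean log2 0.24, and 4 with the offset, with a mean of 0.15 and −0.03 at hypg15). At hypg60 MAFK (log2 0.55) and CREBBP (0.46) were highest and MAFF (−0.35) and RBX1 (−0.24, not called with the offset) lowest among the called regulators above 5 CPM. After heat 6 regulators were lower (all genes 10.2%), and 10 with the offset, which called 3506 of 16430 genes lower, among them the ligase scaffold CUL3 (log2 −0.25) and the small MAF protein MAFG (−0.21).

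Of 38 further NRF2 target genes, 28 were tested in each comparison. At wait1min 5 were higher and 21 lower (median log2 −0.73), beside 41.4% and 40.1% of all genes. With the GC offset 2 were higher and 23 lower (median −0.51), beside 5186 and 7535 of 16918 genes. TKT, an enzyme of the pentose phosphate pathway, had a mean log2 of −1.02 over the 3 waits, and the glutathione transferase GSTP1 was lower as well (645.4 to 681.6 CPM in Ctrl300, 360.6 to 381.1 CPM at wait1min, mean log2 −1.10). With the GC offset the means were −0.68 for TKT and −0.63 for GSTP1. UGDH (mean log2 0.79) and the exporter ABCC4 (0.55) were highest among those above 5 CPM, and went to −0.22 and −0.05 with the GC offset. At 9 g, 1 target was lower at hypg20s (all genes 8.58%), 2 were higher and 2 lower at hypg75s (16.8% and 14.4%), 3 and 7 at hypg3 (16.9% and 24.4%), 1 and 5 at hypg7 (6.64% and 6.19%), 2 and 5 at hypg9 (11.3% and 8.34%), 6 and 5 at hypg15 (25.4% and 27.9%) and 2 and 4 at hypg60 (17.1% and 13.0%). At hypg5 edgeR called 0 targets, with 5 at an unadjusted p under 0.05 and 2 called by DESeq2. With the offset the number of targets lower was 9 at hypg75s (2276 of 16052 genes), 5 at hypg3 (2454 of 15984), 6 at hypg5 (1279 of 16075), 8 at hypg7 (2262 of 16210), 11 at hypg9 (3079 of 16166), 4 at hypg15 (3401 of 15682) and 14 at hypg60 (4140 of 16104), and at most 2 were higher at any time. PRDX1, a peroxiredoxin that thioredoxin reduces, was lower at 6 of 8 times (mean log2 −0.19, 7 times with the GC offset), running from 547.8 to 592.8 CPM in Ctrl and from 459.7 to 545.9 CPM at hypg3. ABCC1 was higher at 6 of 8 (mean log2 0.19, and 5 with the offset, with a mean of 0.10). At hypg60 BLVRA, a biliverdin reductase, was lower (log2 −0.42), as was PRDX1 (−0.28), and ABCC1 was higher (0.31, and 0.18 with the offset). After heat 1 target was higher (ABCC4, log2 0.16) and 2 were lower (UGDH, −0.26, and PRDX6, −0.10), beside 10.6% and 10.2% of all genes. With the offset 1 was higher and 7 were lower, beside 1477 and 3506 of 16430 genes.

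Of 26 other redox enzymes, 25 were found in the table and 23 were tested. At wait1min 4 were higher and 17 lower (all genes 41.4% and 40.1%, median log2 −0.78), and 3 and 20 with the GC offset (5186 and 7535 of 16918 genes), with PRDX5 (mean log2 −1.19) and GPX4 (−1.12), which reduce peroxides, falling most above 5 CPM, by means that were −0.73 and −0.65 with the offset. GGCT (0.97) and the mitochondrial PRDX3 (0.68) rose most, and with the offset GGCT was at 0.35 and PRDX3 at 0.05. At 9 g, 1 redox enzyme was higher and 1 lower at hypg20s, 1 and 8 at hypg75s, 1 and 7 at hypg3, 3 and 9 at hypg15 and 1 and 9 at hypg60, and 1 was lower at hypg5, 4 at hypg7 and 6 at hypg9, beside the shares of all genes given for the regulators. SOD1, the cytosolic superoxide dismutase, was lower at 7 of 8 times (mean log2 −0.30, 7 with the offset), from 205.8 to 236.1 CPM in Ctrl to 165.4 to 189.0 CPM at hypg3. Catalase (CAT, mean log2 −0.27) and the glutaredoxin GLRX (−0.22) were each lower at 6 of 8 times, and at 7 and 5 times with the offset. At hypg60 the gene that was higher was AIFM2 (log2 0.50), and GGCT (−0.55) and SOD1 (−0.47) were lowest among those above 5 CPM. With the offset 15 were lower at hypg60, beside 4140 of 16104 genes, 7 at hypg5 and 12 at hypg9, and 10 were lower at each of hypg75s, hypg3, hypg7 and hypg15 and 0 at hypg20s, beside the numbers of all genes given for the regulators. After heat SLC3A2, the partner chain of SLC7A11 in the cystine carrier, was higher (log2 0.09), as 1 of 23 beside 10.6% of all genes, but was at 0.01 and not called with the offset, and DESeq2 called 0 of the 23.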

How the data were processed

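RNA from Jurkat T cells was measured in 80 libraries of 15 groups. Read pairs per gene were deposited by the authors as raw counts in 1 table, made with featureCounts (2.0.3 in its header, 2.0.1 in the submitters' processing notes) on the reverse strand after STAR 2.7.3a and Trim Galore 0.6.5, with Ensembl 104 on GRCh38. Its length column, in another unit (bases), was written by the authors' program as the summed exon length. A read pair on exons of 2 genes counts for neither. 1 gene whose record was broken over 3 lines was left out. Depth was 22634465 to 41893490 counts per library, and the floor of 3 counts and all intervals cover counting error or library spread only.

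Each comparison was fitted on all genes of its 2 groups with edgeR 4.0.16 in R 4.3.3 (TMM, filterByExpr at a minimum count of 10, quasi-likelihood F test, Benjamini-Hochberg adjusted p under 0.05), and the difference of effects on 4 groups. Standard errors were derived from the F statistic. Alternatives were RLE or total-count scaling, no filter, the Wald test of DESeq2 1.42.0, all groups in 1 model, a lowess GC offset (span 0.3, prior count 2), leaving out libraries, and keeping library 75. Leaving out Ctrl library 3 or each hypg60 and Ctrl60 library was added after seeing the data. GC content came from the longest transcript in GENCODE 29, not the release used for counting. Scripts were tested on simulated data.

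The members and lists were chosen with earlier results of these data known. The 10 members were fixed by name. From each list, genes called with the same sign at 6 or more of 8 times at 9 g were named, and for 300 g (called alike at all 3 waits), heat and hypg60 the 2 highest and 2 lowest called genes averaging 5 CPM or more. 1 gene that met this rule is not reported here.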

Additional observations from a re-analysis of the deposited data

Results flagged for a closer look

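Each of the 9 tested members was searched in each group for a library far from the others by Dixon's criterion, which chance alone meets in about 1 in 20 groups. Of these 135 sets of values, 7 met it. In hypg60, library 44 held NFE2L2 at 22.19 CPM (the others 11.76 to 14.05) and GCLM at 22.0 CPM (11.1 to 14.12), with a lower GC content of counts than the rest of its group. KEAP1 was at 165.02 CPM in library 9 of Ctrl60 (the others 174.33 to 179.41). TXN was at 70.21 CPM in library 3 of Ctrl (59.89 to 62.38), which raises the control mean of 7 comparisons. NQO1 was at 9.34 CPM in library 22 of hypg75s (10.22 to 10.65). TXNRD1 was at 481.3 CPM in library 54 of wait1min (434.15 to 438.53) and at 438.23 CPM in library 59 of wait4min (430.7 to 431.25).

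The effect of wait1min differed from that of hypg5 in all 9 tested members by the tested difference of effects, beside 34.7% of 18002 genes higher and 37.9% lower. With the GC offset GCLM, TXN and TXNRD1 changed sign, TXNRD1 without a call, and SRXN1 lost its call. NQO1 and SRXN1 were not called with total counts only. On the log2 scale the difference was 3.1 for SLC7A11, 1.94 for NFE2L2, 1.39 for GCLM, 1.02 for GCLC, 0.4 for TXN, 0.33 for TXNRD1, −0.26 for NQO1, −0.92 for KEAP1 and −1.14 for SRXN1 (edgeR's quasi-likelihood test, adjusted p between 9.8e-10 and 0.039).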

How the results depend on the processing

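No paired analysis was made, because the labels do not say whether libraries of different groups share a culture. Of 1494 values of single members recomputed under an alternative, 1394 kept their call and direction or stayed without a call, 47 lost the call, 37 gained a call and 16 changed sign with a call in at least 1 of the fits compared. These 16 came from the GC content offset, and changes of sign without a call in either fit are not counted among them. They were at 300 g GCLM (−0.29, −0.24 and −0.23 at wait1min, wait4min and wait15min), TXNRD1 (−0.21, −0.25 and −0.26) and TXN (−0.44, −0.58 and −0.63), at 9 g KEAP1 (−0.12 at hypg75s, −0.16 at hypg3 and −0.14 at hypg15) and GCLM (0.22 at hypg15), and in the difference of wait1min and hypg5 effects GCLM (−0.28), TXNRD1 (−0.07) and TXN (−0.34).

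In the following other fits the number of members called moved by more than 1.5 times, or from or to 0. With the GC offset it was 2 at hypg5 (0 in the report), 3 at hypg7 (1), 4 at hypg9 (2), 4 at hypg60 (2) and 2 after heat (0). All genes called moved as well. At hypg5 768 were higher and 1279 lower of 16075 (705 and 276 of 16284 with TMM). At hypg7 the numbers were 1141 and 2262 of 16210 (1091 and 1017 of 16438 with TMM). They were 1767 and 3079 of 16166 at hypg9 (1849 and 1366 of 16385). At hypg60 they were 2713 and 4140 of 16104 (2791 and 2125 of 16318). After heat they were 1477 and 3506 of 16430 (1770 and 1691 of 16655). With DESeq2 the number of members called was 2 at hypg3 (4), 1 at hypg5 and 2 at hypg7, and with RLE factors 2 at hypg3. DESeq2 called 3090 genes higher and 3599 lower of 16194 at hypg3 and 805 and 514 of 16284 at hypg5. At hypg7 it called 1079 and 1350 of 16438 genes. RLE factors gave 3268 and 3576 of 16194 genes at hypg3. With total counts only the number of members was 0 at hypg7 (1720 genes higher and 836 lower of 16438). It was 1 at hypg9 (2531 and 908 of 16385) and 1 at hypg60 (3364 and 1471 of 16318). With no filter it was 0 at hypg7 (770 and 767 of 34104) and 1 at hypg9 (1464 and 1289 of 33980). For wait15min minus wait1min it was 1 (TXN) with no filter (22 and 256 of 34548). With all groups in 1 model it was 3 after heat (1461 genes higher and 4027 lower of 18621). It was 1 for hypg15 minus hypg3 in that model (717 and 338 of 17941), which was not run for the difference of effects. With library 75 kept it was 3 at hypg15 (6), beside 2694 genes higher and 2412 lower of 15736 (4040 and 4437 of 15875 without it). Leaving out libraries gave 1 to 6 members at hypg60 (6 without library 44, beside 3482 genes higher and 3637 lower of 16417). At hypg7 it gave 0 (without Ctrl library 3, beside 984 and 987 of 16596 genes). After heat it gave 0 to 1. It stayed within 1.5 times at hypg15 (4 to 6), wait1min (8 to 9), wait4min (7 to 9) and wait15min (7 to 8).

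Among all genes called, the share that was higher moved by over 10 percentage points with the GC offset from 43.7% to 57.7% at hypg20s, 53.8% to 41.8% at hypg75s, 71.9% to 37.5% at hypg5, 51.8% to 33.5% at hypg7, 57.5% to 36.5% at hypg9, 56.8% to 39.6% at hypg60 and 51.1% to 29.6% after heat, and with total counts only to 67.3%, 73.6%, 69.6% and 65.8% at hypg7, hypg9, hypg60 and after heat. With total counts only it went from 50.8% to 62.0% at wait1min, from 50.6% to 63.0% at wait4min and from 50.8% to 63.0% at wait15min, and for hypg15 minus hypg3 from 66.9% to 48.7% with the offset. Beside scaling, it went to 62.4% at hypg20s and 26.6% after heat with all groups in 1 model, to 32.2% at hypg20s with no filter, to 61.0% at hypg5 with DESeq2 and to between 67.4% and 68.9% at hypg60 without library 9, 10, 12 or 45. Ctrl60 minus Ctrl had too few calls for such a share. Of the members, SRXN1 (3 to 33 counts per library) and HMOX1 had the fewest counts. The causes of these shifts were not tested.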
